A study of Drosophila melanogaster with 3 samples.

Results

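Peaks of a Dbx-eGFP fusion protein were examined at 9 genes of the Drosophila epidermal growth factor (EGF) receptor pathway: spi, vn and rho for ligands and their processing, Egfr for the receptor, aos, sty and kek1 for inhibitors, and pnt and aop for nuclear effectors. A chromatin immunoprecipitation (ChIP-seq) summit, the deposited point of highest signal in a peak, was counted for a gene when its nearest protein-coding transcription start site was one of that gene's, or when it lay in the gene body or within 2 kb of either end. Of the 13945 protein-coding genes on the main chromosomes, these 9 held 32 of the 4943 summits in the deposited list named conservative. A summit was present at 8 of the 9 genes; kek1 had none. The genes were chosen by name and not by their peaks, but with earlier results of these data known.

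The samples were 3 biological replicates of 1 group: whole embryos of 8 to 24 h from the strain Dbx-GFP, which carries a transgene for the fusion, with an antibody against GFP used for the precipitation. The stage is that of the source name, because a separate age entry gives a figure impossible for embryos. No source used here gives the promoter or site of the transgene, no second group or control was analysed, and it is not known how far any peak is particular to the fusion. Whole embryos mix all cell types, so a peak cannot be placed in a tissue, and binding in few cells cannot be told apart from weak binding in many. The thresholded replicate lists held 3701, 3353 and 2519 peaks for replicates 1, 2 and 3, and the read depth behind them is unknown.

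The transcription factor Dbx has a homeodomain and is known from interneurons of the embryo. The EGF receptor, a receptor tyrosine kinase, signals through the Ras and MAP kinase relay in many embryonic tissues, among them the ventral ectoderm and the nervous system. Its main ligand Spitz (spi) is made as a membrane-bound precursor that the intramembrane protease Rhomboid (rho) cleaves, while Vein (vn) is a secreted neuregulin-like ligand. Argos (aos) is a secreted antagonist that binds Spitz, Sprouty (sty) is an intracellular inhibitor of receptor tyrosine kinase signalling, and Kekkon 1 (kek1) is a transmembrane protein that binds and inhibits the receptor. In the nucleus Pointed (pnt), an ETS-domain activator, and Yan (aop), an ETS-domain repressor, act on shared target genes.

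The sequences around the 9 sites whose conservative peak overlapped a peak in every replicate list are shown first, because these are the sites of the 9 genes that recurred in all 3 replicates; they lie at 5 of the genes. Each was read from the RefSeq sequence of dm6 on the plus strand, within 100 bp of the conservative summit and clipped to the peak. Capitals mark matches to 7 words searched on both strands, which are named with the results on sequence; a sequence with no capitals holds none of them. The genes are on the minus strand, so transcription of each runs from right to left.
spi site 1, chr2L:19575639-19575839: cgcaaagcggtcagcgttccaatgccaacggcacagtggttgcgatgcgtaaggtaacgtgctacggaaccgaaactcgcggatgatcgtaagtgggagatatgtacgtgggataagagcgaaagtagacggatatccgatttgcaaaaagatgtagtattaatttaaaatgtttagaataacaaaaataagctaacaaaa
aos site 1, chr3L:16480446-16480645: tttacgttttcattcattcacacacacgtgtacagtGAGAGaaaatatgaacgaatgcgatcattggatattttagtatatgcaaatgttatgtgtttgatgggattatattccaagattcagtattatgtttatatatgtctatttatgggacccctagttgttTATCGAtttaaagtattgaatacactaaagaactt
aos site 2, chr3L:16483688-16483888: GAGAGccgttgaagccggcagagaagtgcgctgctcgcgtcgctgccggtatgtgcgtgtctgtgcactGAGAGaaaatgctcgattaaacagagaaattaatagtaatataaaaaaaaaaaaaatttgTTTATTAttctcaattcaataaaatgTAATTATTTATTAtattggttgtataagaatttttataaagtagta
sty site 1, chr3L:3432765-3432904: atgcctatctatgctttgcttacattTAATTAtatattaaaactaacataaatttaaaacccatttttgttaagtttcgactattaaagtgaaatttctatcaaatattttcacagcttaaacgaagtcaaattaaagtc
sty site 2, chr3L:3418872-3419026: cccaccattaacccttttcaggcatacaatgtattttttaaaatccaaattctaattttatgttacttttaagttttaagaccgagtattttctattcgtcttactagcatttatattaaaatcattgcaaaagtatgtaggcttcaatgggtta
sty site 3, chr3L:3437277-3437477: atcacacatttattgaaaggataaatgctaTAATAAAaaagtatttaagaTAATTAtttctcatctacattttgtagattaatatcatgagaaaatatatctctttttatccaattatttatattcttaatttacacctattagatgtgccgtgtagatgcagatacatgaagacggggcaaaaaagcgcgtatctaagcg
pnt site 1, chr3R:23335615-23335815: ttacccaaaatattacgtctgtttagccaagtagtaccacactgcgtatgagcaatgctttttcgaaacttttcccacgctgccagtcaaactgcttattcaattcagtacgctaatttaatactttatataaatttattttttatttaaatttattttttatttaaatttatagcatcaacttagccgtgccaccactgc
aop site 1, chr2L:2180149-2180349: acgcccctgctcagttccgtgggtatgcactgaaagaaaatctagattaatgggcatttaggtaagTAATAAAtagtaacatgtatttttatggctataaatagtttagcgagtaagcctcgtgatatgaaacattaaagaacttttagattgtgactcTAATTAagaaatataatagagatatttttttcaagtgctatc
aop site 2, chr2L:2163582-2163782: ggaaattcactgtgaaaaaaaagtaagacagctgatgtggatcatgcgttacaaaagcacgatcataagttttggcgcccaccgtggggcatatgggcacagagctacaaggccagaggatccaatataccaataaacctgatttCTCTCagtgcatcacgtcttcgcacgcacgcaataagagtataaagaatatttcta
The summit is base 101 of each sequence, except base 59 of sty site 1 and base 73 of sty site 2, whose peaks are narrower. The GC content was 43.3% at aop site 2, 42.3% at spi site 1, 32.8% at aos site 2, and between 23.6% and 31.8% at the other 6.

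The 9 genes differed in how many summits they held and in how well these recurred. In the conservative list sty had 9 summits, pnt 6, aop 5, spi 4, and vn, rho, Egfr and aos 2 each. Over the 3 replicate lists sty had 3.67 ± 1.15 summits, aop 3.67 ± 1.53, spi 2.67 ± 1.15, pnt 2.33 ± 1.15, aos 2 ± 0, vn 1 ± 1, and rho and Egfr 0.333 ± 0.577 each (mean ± SD, n = 3 lists). Neighbours in this order from sty to vn had overlapping ranges over the replicates, and only more distant genes separated, such as sty at 3 or more in each list and aos at 2. By contrast the highest replicate count of rho and of Egfr was 1, below the lowest count of sty, spi, aos or aop, which was 2 or more.

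**Figure D1:**
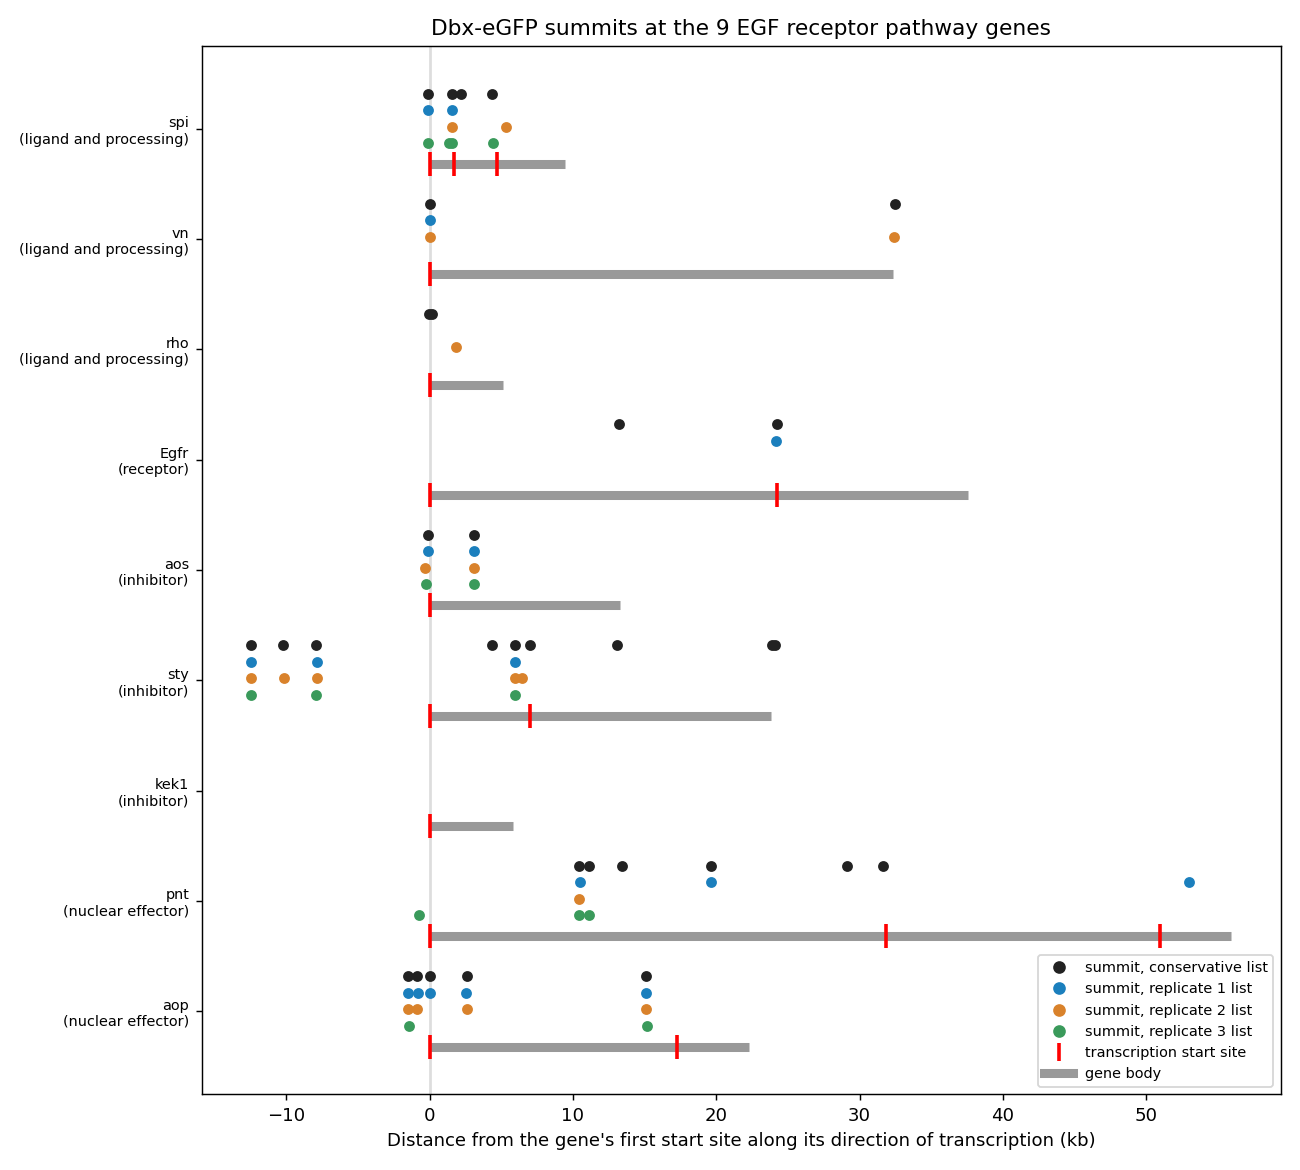
Positions of summits at the 9 genes, in kb from each gene's first transcription start site along its direction of transcription; dots are summits of the conservative list and the 3 replicate lists, red marks are start sites and grey bars gene bodies. Dots of all 4 lists line up at spi, aos, sty, pnt and aop, the 5 genes with a site in every replicate, and kek1 has no dot.

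A summit was present at 8 of the 9 genes in the conservative list, against 40.8% of all protein-coding genes. It was present at 7 of 9 in replicate 1 (33.5% of all genes), at 7 of 9 in replicate 2 (32.5%) and at 5 of 9 in replicate 3 (26.5%). The 5 genes of replicate 3 were spi, aos, sty, pnt and aop, and at these same 5 a conservative peak overlapped a peak of every replicate list, which was so for 20.4% of all genes. Several of the 9 are long genes, and among genes within a factor of 1.25 of each one's length, between 51.2% (for rho) and 62.6% (for pnt) had a conservative summit. No share among genes of like length was taken for the replicate lists or for a peak in every replicate list. A gene with more summits also has more occasions for 1 of them to recur. Of the 32 summits 11 were also counted for another gene, and the other 21 for the pathway gene alone.

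**Figure D2:**
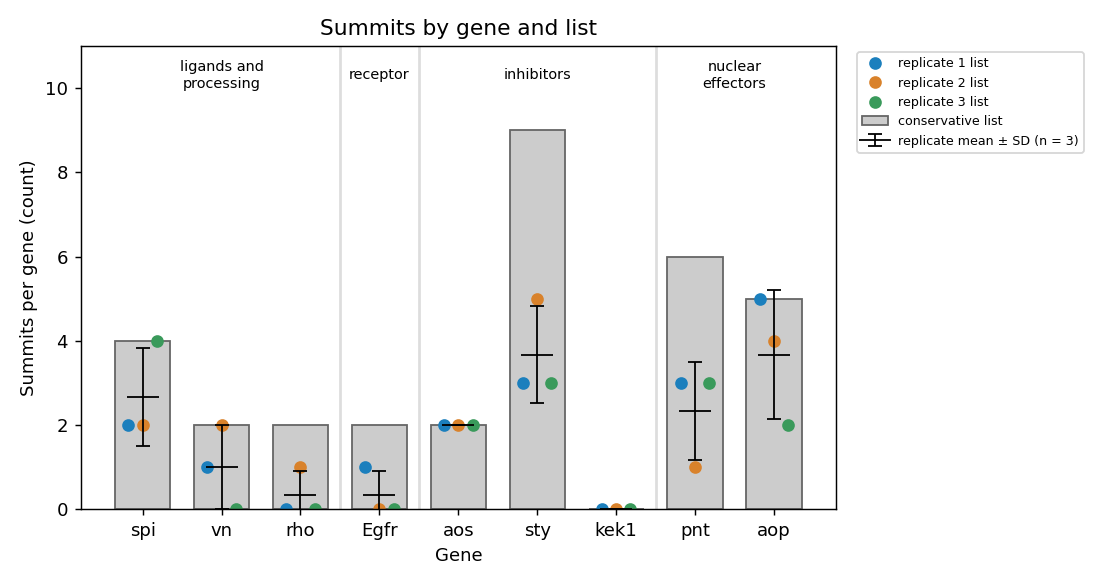
Summits per gene (count) by pathway role; bars give the conservative list, coloured dots the 3 replicate lists, and black marks the replicate mean ± SD (n = 3). The replicate dots of sty lie at 3, 5 and 3 under a bar of 9, and those of aos all lie at 2, the height of its bar.

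spi, at chr2L:19567900-19577315 (FBgn0005672), had the best-ranked of the 32 conservative sites. Its 4 conservative summits are spread over 3 start sites within 9.416 kb. Site 1, the first sequence shown, lay 152 bp upstream of the start of transcript spi-RG and inside the longer transcripts. It ranked 368 of 4943 in the conservative list, 807 of 3701 in replicate 1, 260 of 3353 in replicate 2 and 262 of 2519 in replicate 3. It therefore stood nearer the top in replicates 2 and 3 than in replicate 1, and the 3 replicate summits fell within 28 bp of each other. The deposited −log10 of the irreproducible discovery rate (IDR), on which the authors set their threshold at 2 (an IDR of at most 0.01), was 4.30, 5 and 5 in the ranked replicate lists, where 5 is the highest value given.

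The other spi sites recurred less. Site 3 (rank 2158), 131 bp upstream of the first start site, was held by replicates 1 and 3 at ranks 2604 and 1378. Site 2 (rank 1605), 321 bp upstream of the innermost start site, was held by replicate 3 alone at rank 1367, and its −log10 IDR was 1.42 in replicate 1 and 0.116 in replicate 2. Site 4 (rank 4642), 453 bp downstream of the spi-RG start, was held by no thresholded replicate list. Replicate 2 had a further intronic summit 658 bp downstream of the innermost start site, and replicate 3 had one 372 bp upstream of the spi-RG start, at rank 2492 of 2519. Site 1 was also counted for msb1l, and site 3 for msb1l and Pmvk.

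vn and rho had summits at their start sites that ranked in the lower part of the conservative list. vn (chr3L:5813338-5845664, FBgn0003984) has 1 start site, and its site 1 lay 39 bp downstream of it at rank 3217. The site was held by replicate 1 at rank 2119 and by replicate 2 at rank 3013, with −log10 IDR of 2.47 and 2.07, and no ranked peak of replicate 3 overlapped it. Its site 2 (rank 3321) lay past the far end of the gene, 82 bp from the start site of mad2, and was held by replicate 2 alone at rank 3032. No conservative summit fell in the 32.327 kb between the vn start and the end of the gene other than site 1.

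rho (chr3L:1463811-1468944, FBgn0004635) had 2 overlapping conservative peaks at its start site, with summits 24 bp upstream (rank 3075) and 195 bp downstream (rank 4912). Neither was in a thresholded replicate list: the ranked peak that overlaps both had a −log10 IDR of 1.68 in replicate 1, 1.04 in replicate 2 and 0.495 in replicate 3. All 3 values are under the authors' threshold, and those of the conservative list, 2.72 for each peak, are past it. Replicate 2 alone had another rho summit, 1852 bp downstream of the start in coding sequence, at rank 3103 of 3353. rho lies inside the annotated span of Ptp61F, for which both conservative summits were counted too.

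The receptor gene Egfr (chr2R:21522420-21559977, FBgn0003731) had 2 summits in 37.558 kb. Site 2 (rank 4006) lay 11 bp upstream of the downstream start site, that of transcript Egfr-RB, and was held by replicate 1 alone at rank 2420. Its −log10 IDR was 2.65 in replicate 1, 0.526 in replicate 2 and 0.0382 in replicate 3, so replicate 1 was high and the other 2 were under the threshold. Site 1 (rank 3677) lay in an intron 1172 bp from the start site of CG30286 and was in no thresholded replicate list, with −log10 IDR of 1.88, 1.37 and 0.399. The upstream start site, of Egfr-RA, had no conservative summit closer than 13203 bp.

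aos, the secreted antagonist (chr3L:16470386-16483650, FBgn0004569), had the same number of summits in the conservative list and each replicate list: both of its conservative sites were held by every replicate, and none had another. With an overlap of 50% of each peak in place of 1 bp, each site was held by 2 of the 3. At site 1 the replicate 2 peak, 89 bp wide, was too narrow to cover 50% of the conservative peak of 212 bp. Site 1, in an intron 3104 bp downstream of the start, ranked 463 in the conservative list, 429 of 3701 in replicate 1, 492 of 3353 in replicate 2 and 515 of 2519 in replicate 3. Its −log10 IDR was 5 in each replicate, the highest value given, and the replicate summits spanned 23 bp. Site 2, 138 bp upstream of the start, ranked 1566 in the conservative list and 1948, 1498 and 1276 in replicates 1, 2 and 3, with −log10 IDR of 2.07, 3.46 and 3.48. Replicate 1 was the lowest there, just past the threshold, and the replicate summits spanned 192 bp, the widest span among the 9 sites that every replicate list held. aos lies within the annotated span of CG33158, for which both sites were counted too.

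sty, the intracellular inhibitor (chr3L:3401153-3424935, FBgn0014388), had the most summits. Site 1 (rank 978) lay 7888 bp upstream of the first start site, in an intron of eIF5B, and ranked 1054, 1126 and 781 in replicates 1, 2 and 3. Site 2 (rank 1068), in an intron of sty 983 bp upstream of the inner start site of sty-RB, ranked 940, 1204 and 1145. Site 3 (rank 1951), 12442 bp upstream and again in an intron of eIF5B, ranked 2974, 2843 and 1291. None of these 3 lay within 250 bp of a start site, each was in every replicate list, and their replicate summits spanned 40, 15 and 33 bp.

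The remaining 6 sty sites were little reproduced. Site 5 (rank 3719), a further one in eIF5B at 10227 bp upstream, was held by replicate 2 alone at rank 2342. Sites 4, 6, 7, 8 and 9, at ranks 3554 to 4739, were in no thresholded replicate list. They include site 6, 19 bp downstream of the sty-RB start and the only sty summit within 250 bp of a start site, with −log10 IDR of 1.86, 0.855 and 0.248 in the ranked replicate lists. Sites 4 and 9 overlap each other near the end of the gene. Sites 1, 3 and 5 were counted for sty because its start site was the nearest, and they lie beyond 2 kb of the gene, which leaves 6 within that window.

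kek1 (chr2L:12817000-12822787, FBgn0015399) had no summit in the conservative list or in any replicate list. The nearest conservative summit to its start site was 100714 bp away. The ranked lists do hold peaks there, and the one of highest deposited signal in the gene or within 2 kb of it had a −log10 IDR of 1.33 in replicate 1, 0.673 in replicate 2 and 0.253 in replicate 3. None reached the threshold. The conservative and replicate lists thus give no kek1 peak past the authors' threshold, whereas the longest thresholded list of the series, with 6387 peaks, has 2 kek1 summits, 6871 bp from the start site at rank 4882 and 7 bp from it at rank 5426.

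pnt, the ETS activator gene (chr3R:23290231-23346167, FBgn0003118), is the longest of the 9 at 55.937 kb and had 6 summits. Site 1, in an intron 10452 bp downstream of the pnt-RB start, ranked 996 in the conservative list and 933, 1564 and 743 in replicates 1, 2 and 3, and the replicate summits spanned 31 bp. It was the only pnt site in every replicate list, and the only pnt summit of any kind in replicate 2. Site 2 (rank 2612) was held by replicate 1 alone, at rank 2301, and site 3 (rank 2864), 677 bp from site 1, by replicate 3 alone, at rank 1322. Sites 4, 5 and 6, at ranks 4014 to 4583, were in no thresholded replicate list. Site 5, 233 bp upstream of the pnt-RD start, was the only summit within 250 bp of one of the 3 pnt start sites. Replicate 1 also had a summit 2012 bp downstream of the innermost start site, and replicate 3 one 732 bp upstream of the first.

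aop, which encodes the repressor Yan (chr2L:2156484-2178754, FBgn0000097), had 5 summits, and like those of aos and vn each of them was in at least 1 thresholded replicate list. Site 1, 1495 bp upstream of the first start site in intergenic sequence, ranked 1002 in the conservative list and 1048, 926 and 1318 in replicates 1, 2 and 3. Site 2, in an intron 2155 bp upstream of the inner start site, ranked 1230 in the conservative list and 1913, 937 and 1345 in the replicates. Both were in every replicate list, with replicate summits spanning 35 and 74 bp.

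The other aop sites were missing from replicate 3. Site 3 (rank 1654), 874 bp upstream of the first start, ranked 1193 in replicate 1 and 1132 in replicate 2, and site 4 (rank 2154), in an intron 2590 bp downstream, ranked 2070 and 2465 there. Site 5 (rank 3162), 31 bp downstream of the first start, was held by replicate 1 alone at rank 2621. In the ranked list of replicate 3 these 3 sites had −log10 IDR of 1.12, 0.758 and 0.0966. Sites 1, 3 and 5 form a run in which neighbouring summits are 621 and 905 bp apart.

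**Figure D3:**
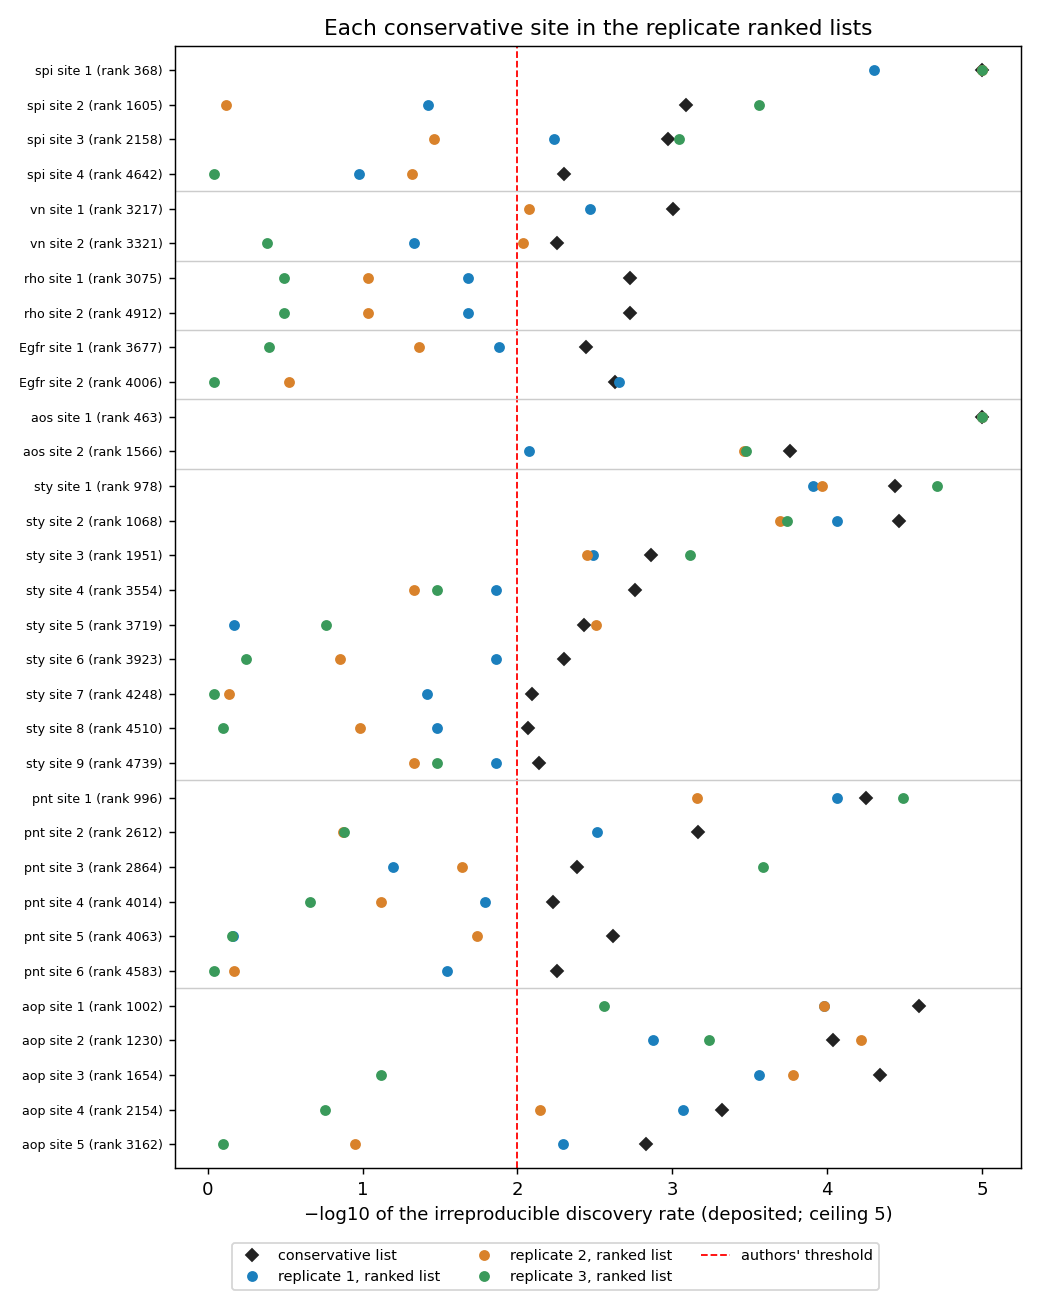
Deposited −log10 IDR of the 32 conservative sites (rows, ordered by rank within each gene) in the conservative list (black diamonds) and in the overlapping peak of each ranked replicate list (coloured dots); the dashed line is the authors' threshold, and dots of equal value hide each other. Spi site 1 and aos site 1 reach the highest value given, 5, and both rho sites have every replicate dot left of the line.

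Across the 9 genes, 9 of the 32 conservative sites (28.1%) were in all 3 replicate lists and 12 (37.5%) in none, against 36.2% and 20.5% of all 4943 conservative peaks. The median rank of the 32 was 3118.5 of 4943, so most lay in the weaker part of the list, and no comparison with peaks of like rank was made. The 12 belong to sty (5), pnt (3), rho (2), spi (1) and Egfr (1). In the ranked replicate lists their −log10 IDR ran from 0.163 to 1.88 with a median of 1.68 in replicate 1, from 0.135 to 1.74 with a median of 1.08 in replicate 2, and from 0.0382 to 1.48 with a median of 0.324 in replicate 3. Their values were thus lowest in replicate 3, the shortest list. Both rho sites overlap the same ranked peak in each replicate, as do sty sites 4 and 9, so the values of these peaks enter 2 times. In the other direction, 1 of 17 pathway summits of replicate 1, 3 of 17 of replicate 2 and 1 of 14 of replicate 3 overlapped no conservative peak. The same share over all peaks of each replicate list was not taken, so these counts cannot be called high or low. The longest list of the series did not hold the identical peak for 8 of the 32 conservative sites (25.0%), against 11.2% of all conservative peaks.

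By role, the conservative list held 8 summits at the ligand and processing genes, 2 at the receptor gene, 11 at the inhibitor genes and 11 at the nuclear effector genes. In replicates 1, 2 and 3 the ligand and processing genes had 3, 5 and 4 (4 ± 1), the receptor gene 1, 0 and 0 (0.333 ± 0.577), the inhibitor genes 5, 7 and 5 (5.67 ± 1.15) and the effector genes 8, 5 and 5 (6 ± 1.73; SD, n = 3 lists). The inhibitor and effector counts overlapped, the highest ligand count equalled the lowest of both, and the receptor counts lay under all others. Scaled to the length of each list, the means were 1.30 ± 0.424, 0.0901 ± 0.156, 1.81 ± 0.399 and 1.88 ± 0.347 summits per 1000 peaks (SD, n = 3 lists) in the same order of roles.

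The roles also differ in the sequence they cover. Per 10 kb of gene body plus 2 kb at either end, there were 1.36 conservative summits at the ligand and processing genes, 0.481 at the receptor gene, 1.46 at the inhibitor genes and 1.28 at the effector genes. On this scale the 3 roles other than the receptor lay close together, while single genes ranged from 0 at kek1, 0.481 at Egfr and 0.551 at vn to 1.90 at aop and 2.98 at spi. The 2.16 at sty and 2.19 at rho each count a pair of overlapping peaks as 2 summits. Sites in all 3 replicate lists numbered 1 for the ligand and processing genes, 0 for the receptor, 5 for the inhibitors and 3 for the effectors. A role is 1 to 3 genes, and the inhibitor counts come from sty and aos alone, so no difference between roles was tested.

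The placement of summits relative to the genes also varied by role. At the ligand and processing genes 6 of 8 summits were in promoters (within 250 bp of a protein-coding start site) and 2 in introns. The 6 include vn site 2, in the promoter of mad2, and the 2 overlapping peaks of rho. At the inhibitor genes 2 of 11 were in promoters, 7 in introns and 2 in intergenic sequence, and the effector genes had the same 2, 7 and 2. The receptor gene had 1 in a promoter and 1 in an intron. Over all 9 genes 34.4% of summits were in promoters, 53.1% in introns and 12.5% in intergenic sequence, against 51.4%, 30.5% and 13.9% of all conservative summits.

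Counted from the start sites, the picture differs. Of the 16 start sites of the 9 genes, 9 (56.2%) had a conservative summit within 250 bp, against 17.9% of 19607 start sites of protein-coding genes. In replicates 1, 2 and 3 the numbers were 6 (37.5%), 2 (12.5%) and 3 (18.8%), against 14.1%, 13.3% and 10%. Replicate 2 thus lay at the share of all start sites, and the start sites of spi-RG and vn were the only ones it held.

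Summits of the 9 genes lay near other summits: 26 of 32 (81.2%) had another conservative summit within 5 kb, against 60.7% of all 4943. The peaks of sites 1 of spi, aos and sty and of site 2 of sty were narrower than the usual 400 bp, at 235, 212, 140 and 155 bp. Such narrow peaks made up 4 of 32 here (12.5%) and 19.4% of the whole list, and these 4 ranked between 368 and 1068. Narrow peaks ranked high throughout the list, with a median rank of 499 over all of them and 720.5 for these 4. The median GC content within 100 bp of the summit was 38.3% at the 32 sites and 39.3% over the list.

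**Figure D4:**
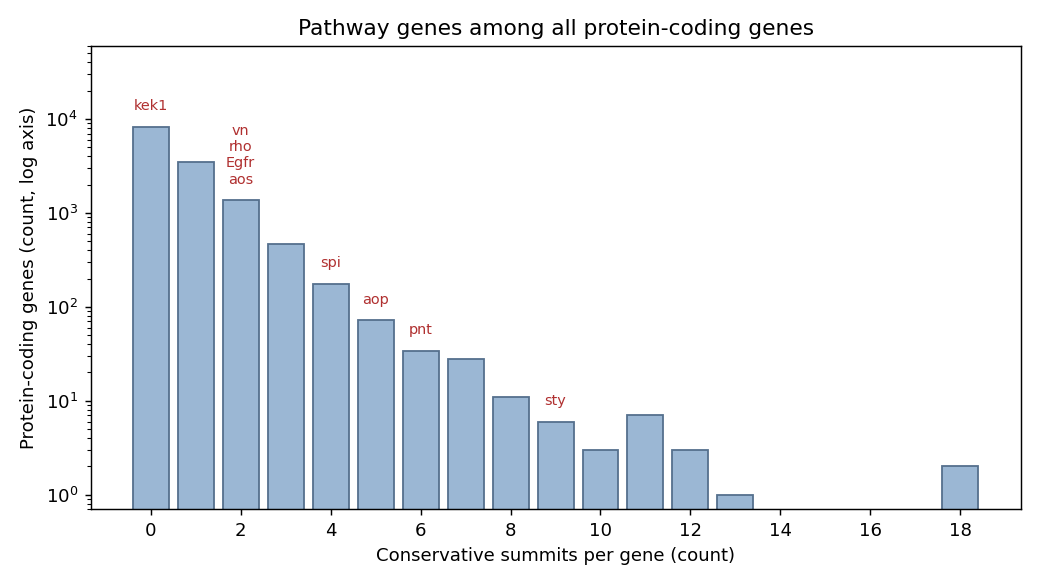
Protein-coding genes (count, log axis) by their number of conservative summits, with the 9 pathway genes written above the bar they belong to. Most genes, kek1 among them, have 0, and sty stands at 9, a number that 22 genes reach or pass.

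Against all protein-coding genes the count at sty was high: 22 of 13945 (0.158%) had 9 or more conservative summits. The 6 of pnt were reached or passed by 95 genes (0.681%), the 5 of aop by 167 (1.20%), the 4 of spi by 342 (2.45%), and a count of 2 by 2168 (15.5%). Thus 3 of the 9 had at least 5, a limit chosen after the counts were seen. Long genes collect more summits: among genes within a factor of 1.25 of its length, 2 of 408 had as many as sty, sty included, while 11.2% had as many as pnt, 6.02% as many as aop and 4.47% as many as spi. For vn and Egfr the shares were 37.4% and 38.3%, so their 2 summits are ordinary for their length. At sty the match on length takes no account of summits beyond the gene: 6 of its 9 lay in the gene or within 2 kb. Its sites 4 and 9 are overlapping peaks, and replicates 1, 2 and 3 held 3, 5 and 3 sty summits.

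The words searched within 100 bp of each summit were TAATTA, a core recognised by many homeodomain proteins, TTTATTA, an A/T-rich word, CCGGAA, an ETS core, GAGAG, the GAGA factor element, TATCGA, the core of the DNA replication-related element, CAGGTA, the Zelda element, and GGTCACAC, a core promoter word. Both strands were read, so TAATAAA and CTCTC in capitals are the same words on the other strand, and TAATTA and TTTATTA can share bases, though at aos site 2 they stand end to end. GAGAG was present at 12 of the 32 sites (37.5%, against 27.4% of all conservative summits). TAATTA was present at 6 (18.8%, against 13.1%), and TTTATTA at 6 (18.8%, against 12.5%). TATCGA was present at 2 (6.25%, against 17.3%), and CCGGAA and CAGGTA at 1 each (3.12%, against 4.81% and 4.07%). GGTCACAC was at 0 of 32 and at 3.30% of all. With 32 windows these counts differ from the shares over the list by a few sites each.

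The 6 sites with TAATTA were spi site 2, aos site 2, sty sites 1 and 3, and aop sites 1 and 3. Among them aos site 2, sty site 3 and aop site 1 also held TTTATTA, and these 3 were in every replicate list. The remaining sites with TTTATTA were pnt site 3, held by replicate 3 alone, and pnt sites 4 and 6, held by no replicate list. Of the 9 sites in every replicate list, spi site 1, sty site 2 and pnt site 1 held none of the 7 words. A match is a run of letters and not a shown binding site.

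The pattern of ranks of spi over the 4 lists was compared with that of 2998 genes that have a peak in each, by the Euclidean distance between rank percentiles. The nearest was msb1l at a distance of 0, which shares the same peak. Next were EcR, the ecdysone receptor gene, at 3.44 (ranks 381, 748, 234 and 336 in the conservative list and replicates 1, 2 and 3), and scat at 3.84 (ranks 388, 757, 291 and 349). The conservative list is a series-level list of the same samples as the replicate lists, so the 4 points are not independent and the likeness is a description only.

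A wider list of 38 genes of the pathway, which leaves out the 9, was read in the same way. It was drawn up with earlier results known and holds further ligands and processing genes, the cytoplasmic relay, negative regulators, and nuclear effectors and targets. A conservative summit was present at 25 of the 38 (65.8%), against 40.8% of all protein-coding genes. The 38 range in length from 1.662 kb (Shc) to 118.734 kb (kek5), and no share among genes of like length was taken for them. In replicates 1, 2 and 3 a summit was present at 23, 21 and 19 of them (21 ± 2, SD, n = 3 lists), against 33.5%, 32.5% and 26.5% of all genes. At 18 (47.4%) a conservative peak overlapped a peak in every replicate list, against 20.4% of all genes. By group the genes with a summit were 4 of 8 ligand and processing genes, 8 of 12 relay genes, 7 of 11 negative regulators and 6 of 7 nuclear genes, and those with a peak in every replicate list were 3, 6, 6 and 3.

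Among the ligand genes, Krn, which encodes the Spitz-like ligand Keren, had a peak at rank 398, 97 bp upstream of its start and as near to that of Ndfip. S, the gene of the Spitz chaperone Star, had an intronic one at rank 513, and ru, a gene of the Rhomboid family, one at rank 1031. In the relay, Raf, the MAP kinase kinase kinase, had 7 summits, the best at rank 237 in an intron, and 5 of its peaks were in every replicate list. msk, an importin gene, had a promoter peak at rank 850.

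At the other 4 named relay genes the best peak was nearer to a start site of a neighbour: that of cnk, a scaffold gene (rank 309), was nearest to l(2)k01209, that of Shc (rank 12, and 34, 12 and 8 in the replicates) lay in a promoter whose nearest gene is Atat, that of dos (rank 537) at RpL8, and that of drk (rank 573) nearest to mars. Ras85D, Dsor1 and rl, the Ras, MEK and MAP kinase genes, and Sos, the Ras exchange factor gene, had no conservative summit; these 4 were picked out after their values were seen.

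Among the negative regulators, Mkp3, the MAP kinase phosphatase gene, had its best peak at rank 792, 447 bp upstream of its start. That of Spred (rank 974) lay in the promoter of BEAF-32, that of RasGAP1 at rank 1189, and that of Socs36E at rank 1225 in an intron, and RasGAP1 and Socs36E had 8 conservative summits each. Of the nuclear genes, gro, which encodes the corepressor Groucho, had a promoter peak at rank 328, and cic, which encodes the repressor Capicua, an intronic one at rank 480. In replicates 1, 2 and 3 these ranked 296, 354 and 482 for gro and 609, 375 and 861 for cic.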

How the data were processed

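The authors deposited dm6 peak lists for each replicate and for the series, in a ranked and a thresholded form, both by irreproducible discovery rate (IDR). The aligner is not given in the sources used here, nor are the peak caller and the way the series-level lists pair the replicates. The deposited signal of a peak is the authors' own enrichment value and was used only to rank peaks within a list. The −log10 IDR is the authors' deposited value in the ranked lists. Nothing gives read depth. The summit is the peak start plus the deposited offset, 1-based. The 8 columns of unnamed single samples in each series-level ranked list were not used.

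Summits were assigned with Ensembl release 115 in Python 3.11.15 (numpy 2.4.6, pandas 2.3.3), and overlap between lists was 1 bp or more. The assignment was tested on simulated data. The replicates are biological, per the labels. With 1 group there is no contrast, so nothing was tested. All 9 members are named; of the wider list, at most 15 by rank with a peak in all 3 replicate lists. Gap1 and RasGAP1 are 1 gene, so 39 symbols gave 38 genes. Members and lists were chosen with earlier results of these data known. Alternatives were other assignments, another list, a stricter signal limit, other overlap rules and leaving out each replicate.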

Additional observations from a re-analysis of the deposited data

How the results depend on the processing

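Of the planned comparisons of a result with an alternative, 65 gave a value near the one reported (counts within 1.5 times, replicate means within 1 SD) and 16 moved it. The 65 include replicate means with 1 replicate left out. With 3 lists such a mean cannot shift by 1 SD, so these comparisons had a fixed outcome and show nothing about stability. The 18 from 2 alternatives chosen after seeing the data did not move. In 1 of them overlapping peaks were merged. In the other, peaks past the threshold but absent from the thresholded list were put back. Of the 152 conservative peaks put back, 0 lay at the pathway genes outside the wider list. The results for those genes were therefore fixed and show nothing about stability. Only the wider list (26 genes against 25) and the share of all protein-coding genes (41.3% against 40.8%) could change. With the nearest start site alone, 23.9% of protein-coding genes had a summit and the receptor gene had 1. With only start sites within 1000 bp, the pathway had 14 summits, of which 1 was at the receptor, 3 at the inhibitors and 3 at the effectors, while 15 genes of the wider list and 19.9% of all genes had a summit. In the longest list the receptor had 1. Among the 50% of peaks of highest signal, 5 genes (against 27.2% of all genes) and 13 of the 32 summits were left. Of the 13, 3 were at the ligand and processing genes, 0 at the receptor, 5 at the inhibitors and 5 at the effectors, and 3 were in promoters. A conservative peak overlapped every replicate list at 5 genes, also without replicate 1 or 2. Without replicate 3 there were 6, with vn added. Leaving out a list relaxes the condition, so this number can only stay or rise and cannot show that a gene depends on 1 replicate. With an overlap of 50% of each peak there were 4, with aos lost and sty kept through its site 3 alone. The conservative peaks of sty sites 1 and 2, at 140 and 155 bp, are too narrow to cover 50% of the replicate peaks there. Their loss under this rule was fixed by width. The receptor's mean of 0.333 summits over the replicate lists was 0 without replicate 1. No paired analysis was possible because there is 1 group. Read depth is unknown, so weak sites cannot be told apart from absent ones.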
